A study of Mus musculus with 18 samples.

Results

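YAP, TAZ and the TEAD proteins are the nuclear end of the Hippo pathway, and the 8 mouse genes described here encode its co-activators (Yap1 and Wwtr1, the gene for TAZ), its DNA-binding partners (Tead1, Tead2, Tead3 and Tead4) and a pair of further TEAD cofactors (Vgll3 and Vgll4). They were chosen by gene symbol from the 34745 genes of a bulk RNA-seq table, and all 8 passed the filter on low counts, as did 14241 genes in all. The libraries came from bone marrow-derived macrophages (BMDMs), cells grown from bone marrow in macrophage colony-stimulating factor (M-CSF), of C57BL/6 mice with a global Zmat1 knockout (KO) and of their wild-type (WT) littermates. The mice were 4 to 8 weeks old. M-CSF was given for 3 days before RANKL by the design text, and for 4 days by the description of the culture. RANKL, the cytokine that drives macrophages to become osteoclasts, was then absent (day 0) or present for 1 or 3 days, which gave 6 groups of 3 libraries (18 in all). Nothing in the sources says that the libraries of a group came from separate mice, so the p-values measure the spread between these libraries, which may be technical.

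YAP and TAZ do not bind DNA themselves. When the Hippo kinases (MST1 and MST2, encoded by Stk4 and Stk3, and LATS1 and LATS2) are active, YAP and TAZ are phosphorylated, held in the cytoplasm or degraded. When the kinases are quiet, for example in spread cells on a stiff support, YAP and TAZ enter the nucleus and activate genes such as Ctgf and Cyr61 through the TEAD proteins. VGLL4 competes with YAP for TEAD and acts as a repressor, and VGLL3 binds TEAD through the same kind of short motif. The pathway is best known from adherent cells such as fibroblasts, epithelial cells and osteoblasts. RNA levels, which are what was measured here, do not show how much of each protein is present or in the nucleus.

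The sequence before the start site is shown for the co-activators and for the pair of VGLL genes, one of which followed the co-activators across libraries while the other did not. Each is a RefSeq promoter of GRCm38.p6, printed 5′ to 3′ on the gene's own strand from 250 bases before the start site to its first 50 bases. Capitals mark GGAATG, the core letters of a TEAD motif, and GGGCGG, a motif of SP factors, on either strand (CATTCC and CCGCCC when read on the other). The AP-1 letters TGANTCA, also searched on both strands, were found in none of these promoters, and no GGAATG shares a base with a GGGCGG in them.
Yap1 (chr9:8004547-8004846, minus strand): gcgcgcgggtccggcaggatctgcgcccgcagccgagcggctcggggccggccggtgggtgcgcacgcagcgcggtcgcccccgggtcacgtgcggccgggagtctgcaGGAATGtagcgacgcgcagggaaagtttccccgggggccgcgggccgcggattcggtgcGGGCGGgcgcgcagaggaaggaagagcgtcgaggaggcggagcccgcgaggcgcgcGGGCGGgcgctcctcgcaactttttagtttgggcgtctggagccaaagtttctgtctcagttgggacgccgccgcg
Wwtr1 (chr3:57575861-57576160, minus strand): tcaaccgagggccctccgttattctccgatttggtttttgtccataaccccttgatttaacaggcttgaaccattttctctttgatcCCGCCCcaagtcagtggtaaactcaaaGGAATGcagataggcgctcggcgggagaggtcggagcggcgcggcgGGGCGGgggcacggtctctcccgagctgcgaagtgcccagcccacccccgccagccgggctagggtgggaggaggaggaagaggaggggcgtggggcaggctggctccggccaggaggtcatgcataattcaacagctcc
Vgll3 (chr16:65814939-65815238, plus strand): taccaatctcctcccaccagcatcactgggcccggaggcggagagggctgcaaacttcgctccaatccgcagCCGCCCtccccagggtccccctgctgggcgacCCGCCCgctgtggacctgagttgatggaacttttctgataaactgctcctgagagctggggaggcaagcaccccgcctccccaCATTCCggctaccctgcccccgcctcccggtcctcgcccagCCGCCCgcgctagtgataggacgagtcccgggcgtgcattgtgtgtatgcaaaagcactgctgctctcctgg
Vgll4 (chr6:114969154-114969453, minus strand): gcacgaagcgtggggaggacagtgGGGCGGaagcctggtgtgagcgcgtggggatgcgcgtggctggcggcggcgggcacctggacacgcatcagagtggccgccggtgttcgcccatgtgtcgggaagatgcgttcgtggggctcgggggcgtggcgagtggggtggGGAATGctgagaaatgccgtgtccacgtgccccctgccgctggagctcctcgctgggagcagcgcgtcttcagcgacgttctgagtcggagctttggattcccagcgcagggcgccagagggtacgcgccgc
Each of these 4 promoters held GGAATG once, first base 141, 136, 63 and 82 bases before the start site for Yap1, Wwtr1, Vgll3 and Vgll4. GGGCGG occurred 2, 2, 3 and 1 times in the same order. Of all 32851 promoters of this length, 14.7% held GGAATG, 35.7% held GGGCGG and 7.81% held TGANTCA. Among the 6 members with a promoter in the table, 5 held GGAATG in at least 1 promoter and Tead2 did not. That count is by gene, and Tead3 and Wwtr1 have more than 1 promoter there, whereas the 14.7% is by promoter. Such matches describe letters only. The Yap1 promoter had 49 CpG dinucleotides and the Vgll4 promoter 34, against a median of 7 over all promoters. The printed start site was the gene start of the counting annotation for Yap1 and Wwtr1, and lay 444 and 791 bases from it for Vgll3 and Vgll4.

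In the coordinates of the deposited table (GRCm38), Yap1 lies at chr9:7931999-8004596 and Wwtr1 at chr3:57455649-57575910. Tead1 lies at chr7:112679318-112906807, Tead2 at chr7:45215753-45233635, Tead3 at chr17:28331671-28350805 and Tead4 at chr6:128224288-128300823. Vgll3 lies at chr16:65815633-65863057 and Vgll4 at chr6:114860628-114969994. Values are for whole genes, exons summed. Yap1, Tead1, Tead2, Wwtr1 and Tead4 each overlap a gene on the opposite strand (Gm20416, 2310014F06Rik, Cd37, Gm16016 and Gm21893), and since the counting is not stated to use strand, reads from the overlapping stretches cannot be told apart.

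Library totals were 13789775 to 17559958 counts. Zmat1 itself did not follow the labels: it had 49 to 99 counts in the libraries labelled KO and 32 to 91 in those labelled WT, so every direction below is by label. Macrophage markers (12 genes, Csf1r, Adgre1 and Lyz2 among them) were high in every library, and their summed level was 31972 to 62431 CPM (read counts scaled to a common library size with TMM factors) on day 0 and 7408 to 18336 CPM on day 3. Stromal markers, 25 genes of fibroblasts and bone-lining cells such as Col1a1, Col3a1 and Pdgfrb, were also present. Their summed level was 175, 856 and 7099 CPM in the 3 WT libraries on day 0, and 5564, 1839 and 5618 CPM in the KO libraries. On day 3 it was 16069 to 20656 CPM in WT and 29822 to 41825 CPM in KO. In bulk samples fewer cells of a type and less RNA per cell cannot be told apart. On day 1 the WT group holds 2 libraries numbered 1, and the one whose title is written with a double hyphen is called so here. In all 5 titles have it, the others being WT day 0 library 1, KO day 0 library 2 and KO day 1 libraries 1 and 2. None is of day 3, so title style is mixed with day and, on day 1, with label. These libraries had the lowest stromal sums of their groups (175, 1839, 501, 5953 and 4192 CPM for WT day 0, KO day 0, WT day 1 and KO day 1). What the title style stands for is not stated.

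Per transcript length, by the deposited FPKM, Vgll3 was the most abundant of the 8 genes on day 3 and Tead4 the least. In read counts scaled to library size alone, Vgll3 and Yap1 were alike (65.5 ± 24.0 and 63.9 ± 11.6 CPM in KO on day 3). The lead of Vgll3 over Yap1 thus rests on the lengths behind the FPKM, which are not given here. In the KO libraries of day 3 the level was 22.2 ± 7.13 FPKM (fragments scaled to transcript length and library size; mean ± SD, n = 3) for Vgll3, 6.50 ± 0.898 for Yap1, 5.34 ± 0.237 for Vgll4 and 4.94 ± 0.728 for Wwtr1. Yap1 and Vgll4 were neighbours that differed by little more than their spread, and Vgll4 and Wwtr1 by less than it. Tead2 (2.92 ± 0.411 FPKM) and Tead3 (2.89 ± 0.263 FPKM) could not be separated, Tead1 followed at 1.10 ± 0.893 FPKM and Tead4 at 0.314 ± 0.120 FPKM. The order was the same in the WT libraries of day 3, from 14.4 ± 5.35 FPKM for Vgll3 through 4.16 ± 0.789 for Yap1 and 3.89 ± 0.724 for Vgll4 to 0.174 ± 0.0300 for Tead4, with Yap1 and Vgll4 within their spread. In the WT library with the lowest stromal level, library 1 of day 0, the order was different: Vgll4 stood at 4.36 FPKM, while Vgll3 was at 0.212, Yap1 at 0.0632, Wwtr1 at 0.0343 and Tead2 at 0 FPKM. Vgll1 and Vgll2, the other members of the vestigial-like family, had 0 counts in all 18 libraries.

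Yap1, the transcriptional co-activator at the end of the kinase cascade, was lowest in the first WT library of day 0 and highest in the KO libraries of day 3. On day 0 it stood at 0.824, 3.48 and 24.0 CPM in WT libraries 1, 2 and 3 and at 23.2, 8.84 and 17.4 CPM in the KO libraries. On day 1 it was 18.3 CPM in WT library 1, 3.17 in the double-hyphen library 1 and 17.9 in library 2, against 20.3, 16.4 and 34.6 CPM in the KO libraries. On day 3 it was 35.8, 49.3 and 33.9 CPM in WT and 55.1, 59.6 and 77.1 CPM in KO. The WT libraries of day 0 thus spanned more than the whole KO group of that day, and only on day 3 did the labels not overlap.

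Wwtr1, which encodes the YAP paralogue TAZ, was lowest and highest in the same libraries as Yap1. It measured 0.330, 2.40 and 13.01 CPM in the WT libraries of day 0 and 10.1, 3.46 and 11.6 CPM in the KO libraries. On day 1 the values were 8.42, 2.42 (double-hyphen library) and 6.20 CPM in WT and 10.6, 10.8 and 16.3 CPM in KO. On day 3 they were 16.7, 19.1 and 19.5 CPM in WT and 29.5, 35.2 and 42.9 CPM in KO. The labels overlapped on day 0 and were apart on days 1 and 3.

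Among the TEAD genes, which encode the proteins that carry the DNA-binding domain, Tead2 and Tead3 tracked the co-activators. Tead2 had 0, 1.08 and 10.01 CPM in the WT libraries of day 0, where 3 counts in library 1 would be 0.247 CPM, and 11.3, 3.38 and 8.81 CPM in the KO libraries. On day 1 Tead2 was at 7.52, 1.83 (double-hyphen library) and 7.58 CPM in WT and at 9.74, 8.66 and 16.1 CPM in KO, and on day 3 at 9.91, 13.5 and 10.04 CPM in WT and at 21.5, 16.6 and 22.1 CPM in KO. The KO libraries lay above the WT libraries on both days with RANKL. Tead3 had 0.742, 1.70 and 9.22 CPM (WT) and 9.48, 2.08 and 4.66 CPM (KO) on day 0, and 5.47, 1.25 (double-hyphen library) and 4.69 CPM (WT) and 4.94, 5.23 and 11.5 CPM (KO) on day 1. On day 3 Tead3 was at 9.45, 16.1 and 8.86 CPM in WT and at 18.1, 22.0 and 22.0 CPM in KO, and it was on this day alone that the labels did not overlap.

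Tead1 and Tead4 behaved less regularly. Tead1 was at 2.14, 1.55 and 7.58 CPM (WT) and 5.85, 9.31 and 3.49 CPM (KO) on day 0, and at 3.43, 1.33 (double-hyphen library) and 5.24 CPM (WT) and 25.5, 2.86 and 9.25 CPM (KO) on day 1. On day 3 it was at 8.62, 11.2 and 6.62 CPM in WT and at 12.99, 11.4 and 47.8 CPM in KO. Single KO libraries stood far above the rest of their group (library 1 on day 1 and library 3 on day 3). Tead4 was close to the detection limit, with 1, 1 and 18 counts (WT) and 10, 1 and 8 counts (KO) on day 0 and 2, 0 (double-hyphen library) and 3 counts (WT) and 6, 12 and 7 counts (KO) on day 1. On day 3 it had 12, 15 and 12 counts in WT and 17, 17 and 36 in KO.

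Vgll3 and Vgll4, which encode cofactors of TEAD, spread over the libraries to very different degrees. Vgll3 stood at 0.824, 4.57 and 31.9 CPM in the WT libraries of day 0, at 18.9, 3.00 (double-hyphen library) and 13.4 CPM on day 1 and at 38.0, 58.6 and 26.7 CPM on day 3. In the KO libraries it stood at 26.7, 7.54 and 19.9 CPM, then 18.3, 15.97 and 45.7 CPM, then 51.8, 51.4 and 93.1 CPM, and the labels overlapped on all 3 days. Vgll4 had 37.7, 65.6 and 50.1 CPM in the WT libraries of day 0, 26.0, 37.8 (double-hyphen library) and 40.7 CPM on day 1 and 22.8, 30.3 and 20.5 CPM on day 3. In the KO libraries Vgll4 was at 45.4, 32.3 and 45.1 CPM, then 39.0, 36.9 and 33.5 CPM, then 35.3, 33.6 and 35.1 CPM. Over the 18 libraries the highest Vgll4 value was 3.20 times the lowest, against 113 times for Vgll3, 93.5 for Yap1 and 130 for Wwtr1. The plot of member levels by library shows these values.

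**Figure D1:**
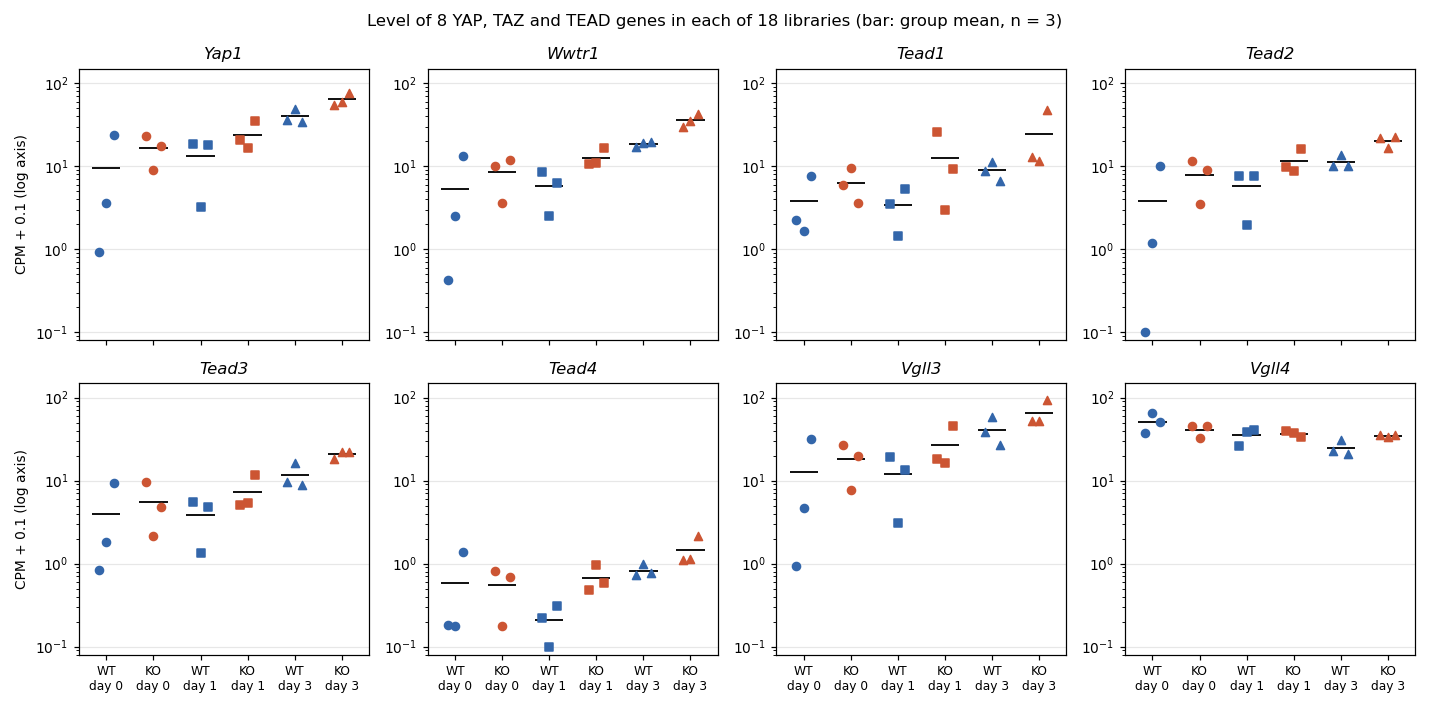
Level of each of the 8 genes in every library (CPM with TMM factors plus 0.1, log axis), by label and day of RANKL; points are libraries, bars are group means. Vgll4 stays between 20.5 and 65.6 CPM, whereas Yap1 runs from 0.824 to 77.1 CPM.

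The comparison of day 3 with day 0 asks how the genes changed over 3 days of culture with RANKL. No library came from cells kept in M-CSF alone to day 1 or day 3, so an effect of RANKL cannot be told apart from time in culture. In the WT libraries Yap1 rose and Vgll4 fell. Yap1 went from 9.42 ± 12.7 to 39.7 ± 8.42 CPM (n = 3 each), a log2 fold change of 2.06 (SE 0.821; edgeR quasi-likelihood test, adjusted p = 0.0484). Vgll4 fell from 51.1 ± 14.01 to 24.5 ± 5.14 CPM (log2 fold change -1.06, SE 0.216, adjusted p = 0.00116). Each of those differences was between groups that did not overlap. Wwtr1 (5.25 ± 6.81 to 18.4 ± 1.48 CPM) had a log2 fold change of 1.80 (SE 0.761, adjusted p = 0.0615), with no overlap between the groups but short of the threshold of 0.05. By DESeq2 Wwtr1 passed (1.85, adjusted p = 0.0311), and by edgeR with total counts it did too (2.12, adjusted p = 0.0418). On the same scale Tead2 stood at 1.58 (adjusted p = 0.161), Tead3 at 1.55 (adjusted p = 0.0976), Tead1 at 1.22 (adjusted p = 0.21), Tead4 at 0.55 (adjusted p = 0.619) and Vgll3 at 1.72 (adjusted p = 0.124), all with overlapping groups. Thus 2 of the 8 members passed the test, 1 in each direction, where 50.2% of all genes tested did (23.7% higher, 26.5% lower). Groups did not overlap for 2 members that were higher and 1 that was lower, where this held for 31.5% and 31% of all genes. The median log2 fold change was 1.56 over the members and -0.031 over all genes tested.

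In the KO libraries Wwtr1 and Tead3 rose from day 0 to day 3. Wwtr1 went from 8.39 ± 4.34 to 35.9 ± 6.72 CPM (log2 fold change 2.10, SE 0.758, edgeR adjusted p = 0.0375) and Tead3 from 5.41 ± 3.76 to 20.7 ± 2.26 CPM (1.93, SE 0.749, adjusted p = 0.0498). Yap1 went from 16.5 ± 7.24 to 63.9 ± 11.6 CPM, a log2 fold change of 1.95 (SE 0.809) that missed the threshold (adjusted p = 0.064). Tead1 had 1.95 (adjusted p = 0.0597), Vgll3 1.86 (adjusted p = 0.108), Tead4 1.55 (adjusted p = 0.165) and Tead2 1.35 (adjusted p = 0.233). Vgll4 stood at 40.9 ± 7.48 and 34.7 ± 0.937 CPM, with overlapping groups and a log2 fold change of -0.24 (SE 0.214, adjusted p = 0.381). Of the 8 members 2 passed the test, both higher (42.5% of all genes passed, 20.2% higher and 22.3% lower), and 7 were higher in every library of day 3 than in any of day 0 (29.4% of all genes were). The median was 1.90 over the members and -0.0052 over all genes.

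Most of these calls turned on single libraries. The Yap1 call in WT was lost on leaving out any 1 of the 6 libraries except WT day 0 library 3. That was the WT library of day 0 with the highest stromal level. Without it the log2 fold change was 4.21 (edgeR adjusted p = 0.000555) and all 8 members passed, where 7659 of 14564 genes did. The Wwtr1 call in KO was lost on leaving out any 1 of the 6 libraries (adjusted p 0.0543 to 0.12), and the Tead3 call on leaving out 5 of the 6 in turn. The fall of Vgll4 in WT passed the test in each of these fits, and with total counts in place of TMM, which moved the median of all genes by 0.36, it was -0.71 (adjusted p = 0.0198). The same scaling moved the median of all genes by 0.29 in KO and turned the Vgll4 value there to 0.039. Whether Vgll4 changed differently under the labels was tested as an interaction, which gave a difference of 0.82 (SE 0.303, unadjusted p = 0.0166, adjusted p = 0.91) and no call at the adjusted threshold among all 14241 genes by edgeR. Vgll4 was the 1 member with an unadjusted p under 0.05 there, and DESeq2 called 0 members. For Yap1 the difference between labels was -0.11 (adjusted p = 0.998).

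After 1 day of RANKL no member passed the test under either label. In WT, log2 fold changes against day 0 were 0.48 for Yap1 (edgeR adjusted p = 0.795), 0.11 for Wwtr1, -0.17 for Tead1, 0.60 for Tead2, -0.03 for Tead3 and -0.08 for Vgll3, and Vgll4 stood at -0.55 (SE 0.214, adjusted p = 0.162). Tead4 was at or under 3 counts in all 3 WT libraries of day 1 and in 2 of the 3 of day 0, so no fold is given for it: only WT day 0 library 3, with 18 counts, stood above. By edgeR 1 member (Vgll4) had an unadjusted p under 0.05, by DESeq2 0 members were called, and 2.35% of all genes were called by edgeR. In KO the 7 members other than Vgll4 had log2 fold changes of 0.31 to 1.01, and Vgll4 had -0.17. There, 0 members were called by edgeR or DESeq2, 0 had an unadjusted p under 0.05, and 0.0211% of all genes were called.

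The plot of fold changes sets the comparisons side by side.

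**Figure D2:**
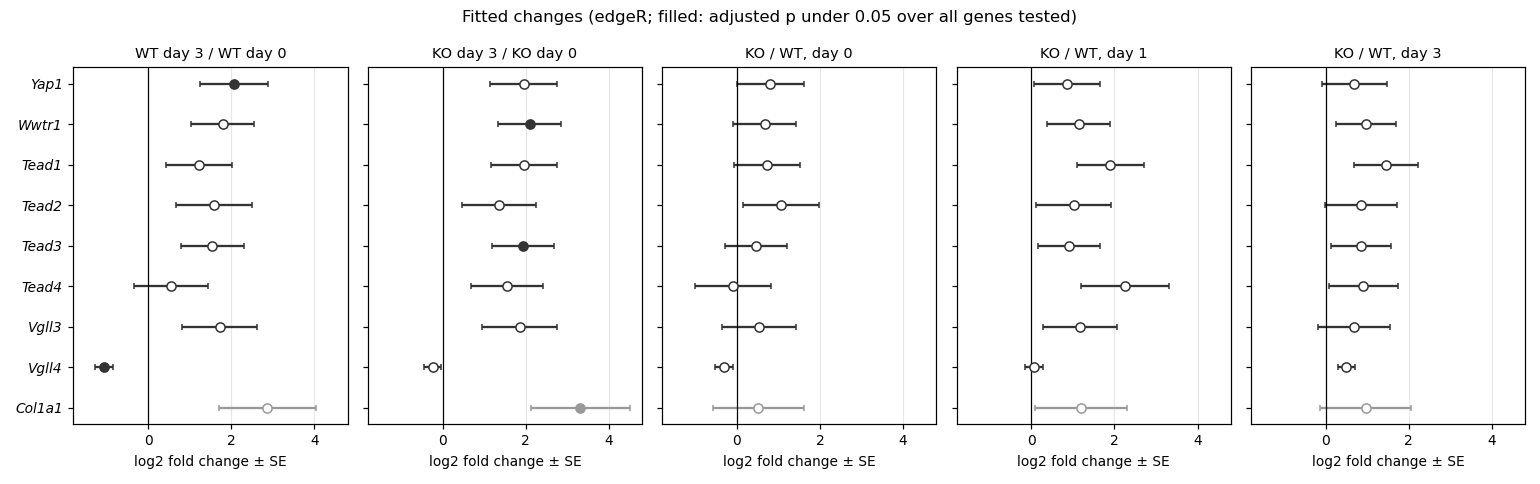
Log2 fold changes with standard errors (x axis) of the 8 genes and Col1a1, from day 0 to day 3 in each label and between labels on days 0, 1 and 3 (edgeR); filled points passed the adjusted p threshold of 0.05. Among the members Yap1 in WT (2.06), Wwtr1 (2.10) and Tead3 (1.93) in KO and Vgll4 in WT (-1.06) are filled, and none is between labels.

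The comparison of the libraries labelled KO with those labelled WT asks what the Zmat1 knockout did to these genes, with the reservation that Zmat1 RNA was not lower in the KO libraries (5.04 ± 0.541 CPM against 3.26 ± 1.30 CPM on day 3, adjusted p = 0.615). No member passed the test on any day. On day 3 Yap1 had a log2 fold change of 0.69 (95% interval -0.98 to 2.35, edgeR adjusted p = 0.78) and Wwtr1 0.96 (-0.59 to 2.52, adjusted p = 0.664). The values were 1.45 for Tead1 (adjusted p = 0.53), 0.85 for Tead2 (adjusted p = 0.757), 0.86 for Tead3 (adjusted p = 0.701), 0.91 for Tead4 (adjusted p = 0.726) and 0.67 for Vgll3 (adjusted p = 0.81). Vgll4, at 34.7 ± 0.937 CPM in KO and 24.5 ± 5.14 CPM in WT, had 0.50 (0.04 to 0.96, unadjusted p = 0.0351, adjusted p = 0.43). All 8 were higher in KO, and for 7 the groups did not overlap, as for 15.9% of all genes in that direction. The stromal markers had the same direction: all 25 had a positive log2 fold change (0 called by edgeR, 0 with an unadjusted p under 0.05), with a median of 1.06, and 20 of them did not overlap, against medians of 0.85 for the 8 members and 0.02 for all genes. Their part in the members' difference was not tested. By edgeR 0 members were called on day 3 (0.14% of all genes were), 1 had an unadjusted p under 0.05, and DESeq2 called 0. In a fit of the 6 libraries of day 3 alone, Wwtr1 passed the edgeR test (0.96, adjusted p = 0.045), as did 158 of 13491 genes in all.

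On day 1 the log2 fold change of KO against WT was 0.85 for Yap1 (95% interval -0.85 to 2.55, edgeR adjusted p = 0.801), 1.14 for Wwtr1, 1.02 for Tead2, 0.91 for Tead3, 1.17 for Vgll3 and 0.07 for Vgll4. Tead1 had 1.90 (unadjusted p = 0.033, adjusted p = 0.605), and Tead4 was at least 2.72-fold higher in KO, the WT libraries being at or under 3 counts. The groups did not overlap for 3 members (Wwtr1, Tead2 and Tead4), as for 6.83% of all genes in that direction, and for 17 of the 25 stromal markers. By edgeR 0 members were called (0.112% of all genes were), 2 had an unadjusted p under 0.05, and DESeq2 called 0. Without the double-hyphen WT library of day 1 the value for Yap1 was 0.39. On day 0 the values were 0.80 for Yap1 (-0.92 to 2.52, adjusted p = 0.878), 0.67 for Wwtr1, 0.72 for Tead1, 1.07 for Tead2, 0.47 for Tead3, -0.09 for Tead4, 0.53 for Vgll3 and -0.32 for Vgll4. Every member overlapped between labels on that day (groups did not overlap for 10.1% of all genes), and 0 were called by edgeR (0.119% of all genes were) or DESeq2, with 0 at an unadjusted p under 0.05. Without WT day 0 library 3 the value for Yap1 was 2.92 (adjusted p = 0.0641).

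Bulk libraries do not show which cells carried these transcripts, so each member was set beside the stromal and the macrophage markers in the same libraries. Other lists also varied widely. Mural markers (10 genes of smooth muscle and pericytes) summed to 37.1, 113 and 825 CPM in WT libraries 1, 2 and 3 of day 0 and to 2655 to 4509 CPM in KO on day 3. For 10 osteoblast markers the sums were 8.74, 13.3 and 94.4 CPM and 404 to 647 CPM. Correlation of the members with these 2 lists was not tested. Col1a1, the main collagen of fibroblasts and osteoblasts, stood at 29.2, 217 and 2011 CPM in WT libraries 1, 2 and 3 of day 0, the order in which Yap1 stood at 0.824, 3.48 and 24.0 CPM. In the KO libraries of that day Col1a1 was at 1394, 380 and 1443 CPM. On day 1 the double-hyphen WT library was again low, with 73.6 CPM against 1288 and 1078 CPM in the other WT libraries, and the KO libraries had 1371, 851 and 3388 CPM. On day 3 Col1a1 was at 5096, 6285 and 5106 CPM in WT and at 8273, 11748 and 12061 CPM in KO, its rise from day 0 passing the test in KO (log2 fold change 3.32, SE 1.19, edgeR adjusted p = 0.0363) and not in WT (2.87, SE 1.17, adjusted p = 0.053). In 5 of the 6 groups the library with the least Yap1 also had the least Col1a1, the exception being WT on day 3, where the Col1a1 values of libraries 1 and 3 were close. Yap1 spanned 93.5-fold over the 18 libraries and the stromal sum 239-fold, whereas the ratio of Yap1 to the stromal sum spanned 4.43-fold. The ratio spanned 5.72-fold for Wwtr1, 4.87-fold for Vgll3 and 8.40-fold for Tead3, but 44.8-fold for Tead1 and 268-fold for Vgll4, for each of which the ratio varied more than the gene itself (35.9-fold and 3.20-fold). Ratios to Col1a1 alone, which spanned 413-fold, were wider: 8.48-fold for Yap1, 10.95-fold for Wwtr1, 9.31-fold for Vgll3 and 14.6-fold for Tead3. All 3 libraries stood in the order of the stromal sum in 3 of the 6 groups for Yap1 and in 2 for Tead3.

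**Figure D3:**
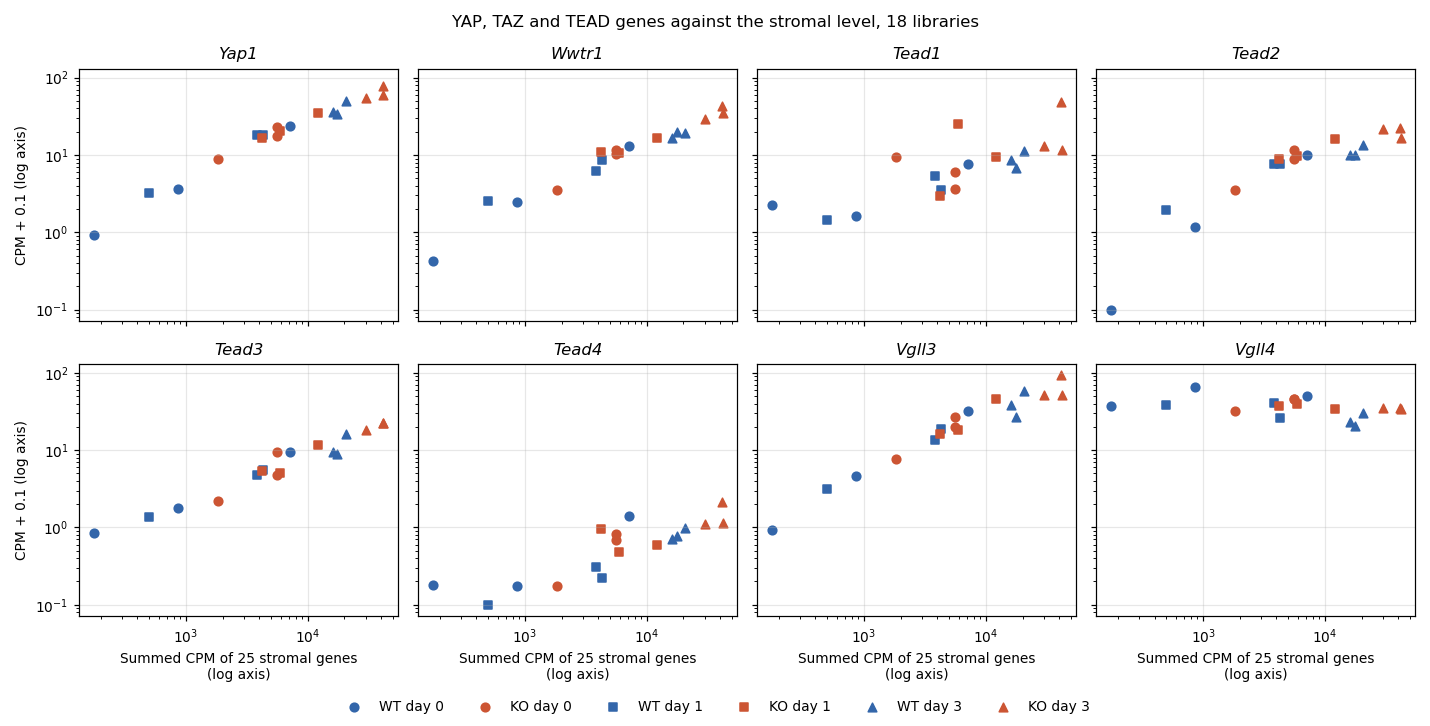
Level of each member against the summed level of the 25 stromal markers (both in CPM on log axes, 0.1 added to the member's), 1 point a library, coloured by label and day. Yap1, Wwtr1, Tead2, Tead3 and Vgll3 lie along a line from the WT library with a stromal sum of 175 CPM to the KO library with 41825 CPM, and Vgll4 does not.

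Since the days form separate clusters, the relation was tested on deviations from the group means (log2 CPM, n = 18 libraries in 6 groups), with 2-sided exact permutation within groups over 46656 orders and adjustment over 16 tests (8 members, stromal and macrophage level). Yap1 correlated with the stromal level at Pearson r = 0.991 (permutation p = 0.000322, adjusted p = 0.00194) and Spearman rho = 0.967 (adjusted permutation p = 0.00423). Without the 2 libraries farthest from the median stromal level, WT day 0 libraries 1 and 3, r was 0.978. Vgll3 had r = 0.972 (adjusted permutation p = 0.00194), rho = 0.899 (adjusted p = 0.00489) and r = 0.928 without those libraries. For Wwtr1, r was 0.962 (adjusted permutation p = 0.00194), rho 0.938 (adjusted p = 0.00423) and r without them 0.926. Tead2 had r = 0.959 (adjusted permutation p = 0.00562), rho = 0.901 (adjusted p = 0.00864) and r = 0.945 without them, and Tead3 had r = 0.948 (adjusted permutation p = 0.00206), rho = 0.911 (adjusted p = 0.00423) and r = 0.906. These 5 genes passed the test, and their slopes, in log2 units of the gene per log2 unit of stromal level, were 0.838 (Yap1), 0.915 (Vgll3), 0.779 (Wwtr1), 0.976 (Tead2) and 0.682 (Tead3). Of all genes with a mean of at least 1 CPM, 1077 of 12867 had r over 0.8 with the stromal level on the same measure, with no test made for them. Each r shares its libraries, and so their depth and scaling, with every other. The permutation takes libraries of different groups as independent, whereas same-numbered KO libraries of days 0 and 3 deviated together (r 0.13 to 0.398). The permutation p-values may thus be too small.

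Tead4, Tead1 and Vgll4 were looser or unrelated to the stromal level. Tead4, with few counts, had r = 0.782 (adjusted permutation p = 0.0522) and rho = 0.715 (adjusted p = 0.0481), and r fell to 0.635 without the 2 farthest libraries. Tead1 had r = 0.470 (adjusted permutation p = 0.165) and rho = 0.465 (adjusted p = 0.189), with r = 0.329 without them. Vgll4 had r = 0.197 (adjusted permutation p = 0.679), rho = 0.110 (adjusted p = 0.736) and r = -0.01 without them, and a slope of 0.0385. Against the macrophage level the members other than Tead1 and Vgll4 had r between -0.603 and -0.410, of which only that of Wwtr1 passed the test by r (-0.603, adjusted permutation p = 0.0278) and not by rho (-0.577, adjusted permutation p = 0.0608). Without WT day 0 library 3 and WT day 3 library 3, the farthest in macrophage level, r for Wwtr1 was -0.481. Yap1 had r = -0.520 (adjusted permutation p = 0.0755) and rho = -0.455 (adjusted p = 0.129). For Tead1 and Vgll4, r was 0.146 and 0.136 and rho 0.150 and 0.162 (adjusted permutation p = 0.679 for each r and 0.645 for each rho). Yap1, Wwtr1, Tead2, Tead3 and Vgll3, grouped here after their values were seen, correlated among themselves at r of 0.905 to 0.984 over their 10 pairs. Tead1 correlated with the 6 members other than Vgll4 at 0.321 to 0.515, and Vgll4 with the other 7 at -0.049 to 0.337.

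**Figure D4:**
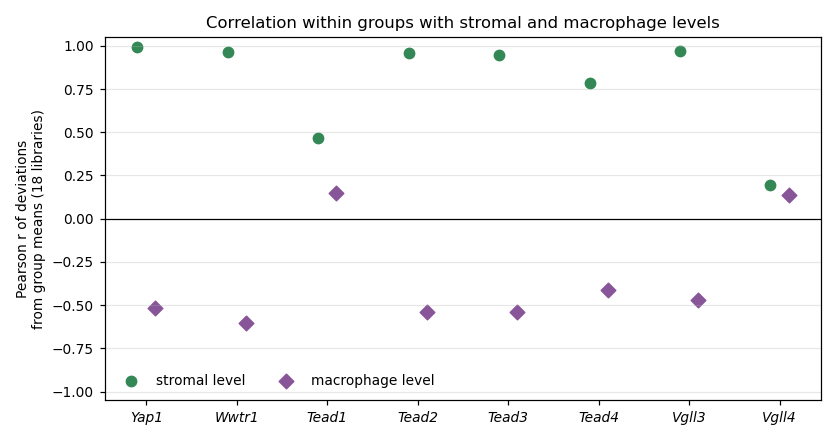
Pearson r of each member with the stromal and the macrophage level, on deviations from the group means over 18 libraries. Yap1, Vgll3, Wwtr1, Tead2 and Tead3 lie between 0.948 and 0.991 for the stromal level, and Vgll4 lies near 0 for both (0.197 and 0.136).

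The genes whose level over the 18 libraries was most like that of a member were ranked by Pearson r of log2 CPM among 12866 other genes with a mean of at least 1 CPM, as a description with no p. Nearest to Yap1 were Lamb1, a laminin chain (r = 0.994), Fam149a, Farp1, Cald1 and Ptk7, and on deviations from group means Ryk (0.994), Farp1, Mrc2, Loxl1 and Lox. Wwtr1 was nearest to Bmp1, a procollagen protease (0.988), Bgn, Adam12, Amotl1 and Fkbp10, and within groups to Amotl1 (0.987), Eml1, Six4, Tead2 and Adam12. For Vgll3 the list was Fermt2, an integrin adaptor (0.992), Lamb1, Bcar1, Dzip1l and Ltbp1, and within groups Fermt2 (0.991), the mural marker Tagln (0.991), Tnfrsf12a, Arhgef17 and Smoc1. Tead2 stood with Cdh2 (0.971), Hoxc10, Amotl1, Eml1 and Ptprg, and Tead3 with Adcy6 (0.988), Arhgef17, Yes1, Ajuba and Tbx15. Tead1 had no gene above 0.835 (Runx1t1). Vgll4 stood instead with Fcrls, a gene of macrophages and microglia (0.923), Ccm2, Mtus1, Itga6 and Naprt, and within groups with Mtus1 (0.932), Cables1, Fkbp15, Ccl24 and Sec14l1. Col1a1 was at rank 63 for Yap1, 121 for Wwtr1, 89 for Vgll3 and 9109 for Vgll4. The median r with the 25 stromal genes was 0.973 for Yap1 and -0.387 for Vgll4, and with the 12 macrophage genes it was -0.669 for Yap1 and 0.654 for Vgll4. On deviations from group means, the median with the stromal genes was 0.966 for Yap1 and 0.190 for Vgll4. With the macrophage genes it was -0.425 and 0.349 on that measure. These correlations over all libraries also hold the differences between days.

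Genes that YAP and TEAD are known to activate were read as a list of 22, of which 21 were tested and Foxf2 was too low. From day 0 to day 3 in WT, 9 of the 21 rose and 3 fell by edgeR's adjusted p, where 23.7% of all genes rose and 26.5% fell. The 9 were Myof, Amotl2, F3, Fjx1, Ccdc80, Dock5, Ptpn14, Arhgef17 and Rbms3, and the 3 were Lats2, Gadd45a and Nuak2. In KO 7 rose (F3, Fjx1, Ccdc80, Dock5, Ptpn14, Arhgef17 and Rbms3) and 1 fell (Nuak2), where 20.2% of all genes rose and 22.3% fell. The median log2 fold change of the list was 1.71 in WT and 1.35 in KO. Ctgf and Cyr61, the secreted matrix proteins most used as readouts of YAP, did not pass: Ctgf had 1.71 in WT (adjusted p = 0.162) and 1.32 in KO (adjusted p = 0.295), and Cyr61 2.09 (adjusted p = 0.0623) and 1.13 (adjusted p = 0.302). Between labels on day 3, 0 of the 21 were called by edgeR, 2 had an unadjusted p under 0.05, 17 were positive and the median was 0.60, with Ctgf at 0.84 (adjusted p = 0.786) and Cyr61 at 0.47 (adjusted p = 0.868). On deviations from group means, 9 of the 21 correlated with the stromal level at r over 0.8, as did 1077 of 12867 genes in all. Those 9 were Tgfb2 (0.989), Ptpn14 (0.987), Amotl2 (0.977), Arhgef17 (0.976), Cyr61 (0.973), Rbms3 (0.949), Ctgf (0.948), Ccdc80 (0.932) and Ankrd1 (0.908). The level of these targets per cell was not measured.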

How the data were processed

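RNA of 18 BMDM cultures was extracted with a column kit, and mRNA libraries were made with a SMARTer kit. The table that the authors deposited gives, for each library, raw read counts per gene and FPKM values. The FPKM were estimated by the authors with StringTie and Ballgown, and the builds in the submitters' processing notes are GRCm38.p4 and mm10. The aligner, the counter and the strand setting are not given in the sources used here.

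Groups and library numbers came from the titles. The WT day 1 group holds 2 libraries numbered 1, whose counts differed by more than sampling noise, as did all pairs within groups. Counts were filtered (filterByExpr), scaled by TMM and fitted over all 18 libraries with edgeR 4.0.16 (R 4.3.3), using the quasi-likelihood test per group contrast and Benjamini-Hochberg adjustment over 14241 genes at 0.05. Intervals are 95% and use the fit's degrees of freedom. Within-group correlations used log2 CPM with a prior count of 2 (numpy 2.4.6, scipy 1.17.1). The scripts were tested on simulated data. Same-numbered KO libraries of days 0 and 3 deviated together (r 0.13 to 0.398 in 3 of 3 pairs), and a replicate block within label changed no member's call in KO. In WT, r was over 0.1 in 2 of 3 pairs of days 0 and 1 (-0.464 to 0.604). It was over 0.1 in 1 of 3 pairs of WT days 0 and 3 (-0.023 to 0.111). Pairs of WT day 0 with KO day 1 reached 0.352. Bounds against groups at or under 3 counts used 3 counts per library and cover counting error only. Alternatives were other filters, DESeq2 1.42.0, other scalings, sample subsets, blocks, leaving out each library, and FPKM with a pseudocount of 0.1.

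All 8 members were named. The 5 genes most like a member over all libraries were named for Yap1, Wwtr1, Vgll3, Tead2, Tead3 and Vgll4. Those most like it within groups were named for Yap1, Wwtr1, Vgll3 and Vgll4. For Tead1 only the nearest gene was named, and Tead4 was too low to rank. Col1a1, Ctgf, Cyr61 and Zmat1 were named too. Other genes named were examples from the lists or passed a test or cut there. Members, lists and tests were chosen with earlier results of these data known. In the table, 59 symbols stood on more than 1 line, none of them a member.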

Additional observations from a re-analysis of the deposited data

How the results depend on the processing

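Of 1044 alternative values of the members' fold changes, 934 kept their direction and side of the threshold, 20 no longer passed it, 29 newly passed it and 61 turned their sign, as did 2 of 176 correlations. The count of members called from day 0 to day 3 was 2 under each label, where 50.2% of all genes were called in WT and 42.5% in KO. In WT it was 1 with no filter on low counts (6653 of 21351 genes were called) and 1 with only the groups compared (5971 of 13269). It was 4 with a replicate block over all numbers (7477 of 14241) and 6 with a replicate block within label (7363 of 14241). With title style as a covariate it was 5 (7542 of 14241). On leaving out single libraries it was 1 to 8, with 7659 of 14564 genes called without WT day 0 library 3, where it was 8. In KO it was 1 with no filter (5471 of 21351 genes), 4 by DESeq2 (6668 of 14241) and 6 with only the groups compared (6247 of 13603). It was 1 with the replicate block over all numbers (6136 of 14241). Without the 5 double-hyphen libraries it was 4, the share of all genes not being reported here. On leaving out single libraries it was 0 to 1, with 4817 of 14554 genes called without KO day 0 library 2, where it was 0. The count from day 0 to day 1 in WT was 2 (Yap1 and Tead2) without WT day 0 library 3, where 1070 of 14564 genes were called. In all other fits that count was 0. With only the libraries of day 3 the count between labels was 1 (Wwtr1), where 158 of 13491 genes were called. Same-numbered WT libraries did not deviate together in every pair (r -0.464 to 0.604 between days 0 and 1, -0.023 to 0.111 between days 0 and 3). The block counts in WT are thus only reported. The Yap1 call in WT was also lost with no filter (adjusted p = 0.0506) and with only the groups compared (adjusted p = 0.133), and the Tead3 call in KO with no filter (adjusted p = 0.0548) and with the replicate block over all numbers (adjusted p = 0.0581). Vgll4 in WT passed under every alternative, at -1.24 to -0.71. The cause of these differences was not tested.

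Signs turned only for fold changes and correlations that had not passed. With the replicate block over all numbers, WT day 1 against day 0 became 0.13 for Tead1, 0.47 for Tead3 and 0.78 for Vgll3, KO against WT on day 0 became 0.20 for Tead4, and the difference between labels in the day 3 change became -0.076 for Wwtr1 and -0.63 for Vgll3. With the replicate block within label the WT day 1 values of Tead1, Tead3 and Vgll3 were 0.29, 1.01 and 1.41. With title style as a covariate those of Tead3 and Vgll3 were 0.049 and 0.10 and the difference between labels for Vgll3 was -0.20, and with both WT day 1 libraries numbered 1 averaged, Tead1, Tead3 and Vgll3 stood at 0.040, 0.10 and 0.037. Without the 5 double-hyphen libraries Wwtr1 in WT on day 1 was -0.063, Tead4 in KO on day 1 was -0.39 and the difference between labels for Yap1 was 0.11. With total counts Vgll4 in KO on day 3 was 0.039, and Tead3 and Vgll3 in WT on day 1 were 0.050 and 0.0081. The correlation with the stromal level was 0.739 for Tead4 with FPKM (now passing), and without the 2 double-hyphen WT libraries it was 0.955 for Tead2 (adjusted p = 0.0506) and -0.0865 for Vgll4.

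On leaving out each library in turn, the WT day 1 fold change ranged from -0.050 to 2.60 for Yap1, -0.43 to 2.05 for Wwtr1, -0.64 to 0.86 for Tead1, -0.50 to 1.64 for Tead3, -2.72 to 0.47 for Tead4 and -0.61 to 2.12 for Vgll3. In KO on day 1 it ranged from -0.028 to 1.48 for Tead1, -0.10 to 1.09 for Tead3, -0.17 to 0.77 for Tead4 and -0.079 to 0.96 for Vgll3. Between labels on day 0 it ranged from -0.20 to 2.13 for Tead3, -0.58 to 2.41 for Tead4 and -0.0088 to 2.73 for Vgll3, and on day 1 from -0.11 to 0.19 for Vgll4. The difference between labels in the day 3 change ranged from -2.24 to 0.41 for Yap1, -1.64 to 0.83 for Wwtr1, -0.30 to 1.13 for Tead1, -2.97 to 0.34 for Tead2, -1.28 to 1.06 for Tead3, -1.51 to 1.48 for Tead4 and -2.06 to 0.68 for Vgll3. The correlations with the stromal level ranged from 0.555 to 0.852 for Tead4 and from -0.206 to 0.404 for Vgll4. Tead4 had 0 to 36 counts a library, so small differences in it were not detectable at this depth.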

Other observations

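The upstream part of the Hippo pathway (30 genes, all tested) held genes that followed the stromal markers and genes that did not. The core kinases and their adaptors varied to different degrees over the 18 libraries: the highest value was 1.48 times the lowest for Lats1, 1.53 times for Stk3 and 1.39 times for Sav1, the adaptor of the MST kinases, but 2.55 times for Lats2, 3.05 times for Stk4 and 5.70 times for Mob1a. Some genes varied with the stromal markers within groups: 7 of the 30 had r over 0.8, namely Ptpn14 (0.987), Amotl1 (0.981), Amotl2 (0.977), Amot (0.968), Ajuba (0.960), Fat4 (0.914) and Wwc1 (0.831), where 1077 of 12867 genes did. The angiomotins Amot, Amotl1 and Amotl2 and the phosphatase PTPN14 are known to bind YAP and hold it in the cytoplasm, and Ajuba is known to restrain LATS. Lats1 had r = 0.113, and the median over the 30 genes was 0.229, against -0.02 over all genes.

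From day 0 to day 3 by edgeR's adjusted p, 6 of the 30 rose (Nf2, Amotl2, Ptpn14, Fat4, Dchs1 and Ywhae) and 6 fell in WT (Stk4, Lats2, Taok2, Taok3, Csnk1d and Csnk1e), counts below the shares of all genes (23.7% rose and 26.5% fell). In KO 9 rose (Lats1, Wwc2, Amot, Ptpn14, Frmd6, Fat4, Rassf1, Ajuba and Wtip) and 4 fell (Taok2, Taok3, Csnk1d and Csnk1e), where 20.2% of all genes rose and 22.3% fell. The median log2 fold change was 0.15 in WT and 0.29 in KO, and between labels on day 3 it was 0.0026 with 0 of 30 called by edgeR and 2 at an unadjusted p under 0.05.

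Lists for the cell types of the culture gave these counts from day 0 to day 3. Of the 25 stromal genes 19 rose in WT and 22 in KO, of the 12 macrophage genes 10 fell under each label, and of 12 osteoclast genes 11 rose under each. Of 10 mural genes 4 rose under each label, and of 9 osteoblast genes tested 7 rose under each. All 10 neutrophil genes fell under each label, and of 6 B cell genes 5 fell in WT and 3 in KO. Of 10 endothelial genes 1 fell in WT and 0 in KO. Of all genes tested 23.7% rose and 26.5% fell in WT, and 20.2% rose and 22.3% fell in KO. Between labels on day 3 no gene of these lists was called by edgeR. An unadjusted p under 0.05 was found for 0 stromal, 1 macrophage, 2 osteoclast, 2 mural, 3 osteoblast and 2 B cell genes. The osteoclast genes had a median log2 fold change of -0.57, all 12 negative. Endothelial genes (10, of which 0 were called and 7 had an unadjusted p under 0.05) had a median of 2.17 and did not overlap for 8, and neutrophil genes (10, 0 called and 8 with an unadjusted p under 0.05) had a median of 3.24 and did not overlap for 6. Mural genes had a median of 1.22, with 6 apart and higher in KO and 1 apart and lower. Osteoblast and B cell genes had medians of 0.90 and 2.90, with 4 and 2 apart and higher. Of all genes 15.9% were apart and higher in KO. The summed endothelial level was at most 101 CPM, and the summed levels of adipocyte and of epithelial markers were at most 12.4 CPM in any library.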
